A study of Mus musculus with 6 samples.

Results

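The renin-angiotensin system was followed in lung ECs of AngII-infused mice through 9 genes, taken by symbol from the 47729 genes counted: Agt, Ace, Enpep, Agtr1a, Agtr1b, Agtr2, Mas1, Agtrap and Atp6ap2. Lung ECs of 3 WT and 3 leene-KO libraries were compared, all from male mice of 14 weeks that received AngII at 1000 ng/kg/min from an osmotic pump for 2 weeks. KO mice, on a C57BL6 background, lack in all cells the region that is syntenic to human LEENE and holds 3 lncRNA genes, none of which is in the annotation used for counting, so the deletion was not checked here. No group without AngII was sequenced, so no value below compares infused with untreated lung. According to the labels, cells enriched with CD31 from 3 mice per group were pooled, whereas the methods of the study name CD144, and neither says if a library is 1 mouse or a share of such a pool. The p-values therefore measure the spread between libraries, which may be technical.

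In this hormone system, renin cuts angiotensinogen (Agt) to angiotensin I, and angiotensin-converting enzyme (Ace), which is abundant on the surface of lung capillary ECs, turns it into AngII. AngII raises blood pressure mainly through the type 1 receptor (Agtr1a and Agtr1b in the mouse), while the type 2 receptor (Agtr2) and Mas1, the receptor of a shorter angiotensin peptide, are known for opposing effects. Peptidases such as Enpep end or redirect the signal, Agtrap binds the type 1 receptor and promotes its internalization, and Atp6ap2 is both the (pro)renin receptor and an accessory protein of the proton pump of endosomes and lysosomes.

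The libraries held 24464324 to 35184063 counts on genes, with 37.4% to 54.45% of them on mitochondrial genes. Pecam1, which encodes CD31, was at 313, 440 and 582 CPM in WT and 563, 379 and 449 CPM in KO libraries, where CPM stands for counts scaled to library size, after TMM normalization. Cdh5, which encodes CD144, was less even, at 178, 365 and 578 CPM in WT and 753, 340 and 499 CPM in KO. The highest and the lowest library were 4.24-fold apart for Cdh5 and 1.86-fold for Pecam1. All 15 EC markers examined were detected in every library. RNA of other lung cells was abundant too. The 7 alveolar type II markers (Sftpc, Sftpb, Sftpa1, Sftpd, Lamp3, Slc34a2 and Abca3) summed to 5420 (replicate 1), 50600 (replicate 2) and 15600 CPM (replicate 3) in WT and to 40000, 48600 and 39300 CPM in KO, and none of them was at 0 in any library. For this sum WT replicate 2 was the highest of the 6 libraries, near KO replicate 2, and the other WT libraries lay below all KO libraries. Calls that rest on this library are given with and without it. By chi-square over gene counts, divided by its degrees of freedom, WT replicate 2 was at 44.5 to 73.9 from the KO libraries. It was at 284 and 200 from WT replicates 1 and 3. WT replicate 1 was at 167 to 299 from every other library, and its TMM factor was 1.374 against 0.8735 to 1.036 in the others. Whether a fit without WT replicate 2 is the cleaner comparison was not tested. In such bulk samples fewer cells of a type and less RNA per cell cannot be told apart.

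Of the 9 genes, 6 had reads in all 6 libraries, 2 had none in any library, and 5 passed the filter on low counts and were tested. Per length, on the RPKM scale (CPM per kilobase of exon), the order of the levels was Ace, Enpep, Atp6ap2, Agtrap, Agtr1a, Agt and Agtr1b, followed by Agtr2 and Mas1 without reads. Mean RPKM over the 6 libraries was 92.2 ± 27.8 for Ace (SD, n = 6), 43.5 ± 24.4 for Enpep, 29.3 ± 10.7 for Atp6ap2, 12.8 ± 2.27 for Agtrap and 2.15 ± 0.834 for Agtr1a. Ace was above Enpep in 6 of 6 libraries, Enpep above Atp6ap2 in only 4 of 6, and Atp6ap2 above Agtrap in 6 of 6, although the ranges of each of these neighbors overlapped. Agtrap and Agtr1a did not overlap. Among the 14625 genes tested, 98.4% had a lower mean RPKM than Ace, close to the 98% for Pecam1, whereas 45.8% lay below Agtr1a.

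No member was called between KO and WT, where a call is a Benjamini-Hochberg adjusted p under 0.05 in edgeR's quasi-likelihood test. This test called 0.109% of all genes (16 of 14625), with 0.0342% higher and 0.0752% lower in KO. With DESeq2, which called 1.28% of its 14985 genes, the count of members was also 0. At an unadjusted p under 0.05, which 10.3% of all genes reached, there was 1 member, Agtr1a. All 5 tested members had a positive log2 fold change (higher in KO), with a median of 0.64, while over all genes tested the median was 0.03 and 7911 of 14625 were positive. Scaling to markers moved the genes by unlike amounts. Scaled to EC markers, the median of all genes was -0.18 and Ace was at -0.04. Scaled to alveolar type II markers the median was -1.74 and Ace was at -1.39, while only Enpep stayed positive, at 0.13. All 5 members were above the median in both, as they were before scaling. With the mean of the alveolar type II markers as a covariate, a fit chosen after the data had been seen, the median of the members was 0.07. In that fit the median of all genes was 0.02 and Ace was at -0.02. In 1 of the 5, Agtr1a, all KO libraries lay above all WT libraries, as in 8.59% of all genes tested. Either kind of separation was seen in 17.8%.

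**Figure D1:**
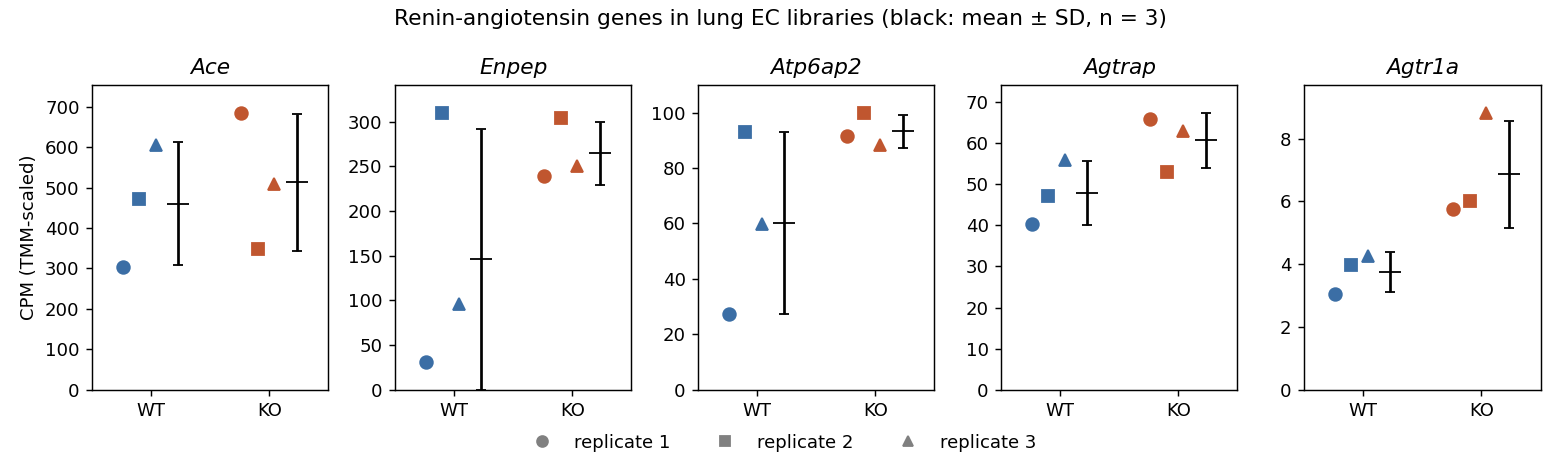
CPM (y axis, TMM-scaled, from 0, a scale of its own for each gene) of the 5 tested members in the 3 WT (blue) and 3 KO (orange) lung EC libraries, with black marks for mean ± SD (n = 3). Agtr1a is the gene whose groups do not overlap, at 3.04 to 4.26 CPM in WT and 5.76 to 8.83 CPM in KO, while Enpep spans 31.3 to 310 CPM within WT.

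The start of the cascade was nearly silent in these libraries. Agt (ENSMUSG00000031980, chromosome 8, 124556534 to 124569706, GRCm38), whose protein comes mainly from the liver, had 9, 6 and 6 counts in the WT and 10, 11 and 3 counts in the KO libraries. This is 0.103 to 0.43 CPM, too few reads for the test, and the groups overlapped. Ren1, the renin gene, had no read in any library, which at these depths allows up to 3 counts, or 0.0734 to 0.14 CPM. Floors of this kind cover counting error only. Cma1, the mast cell chymase that can also form AngII, was at 0.661, 0.411 and 0.609 CPM in WT and 0.516, 0.662 and 0.586 CPM in KO. Cathepsin G (Ctsg) had 1 count in WT replicate 3 and 6 counts in KO replicate 1, and Cma2 had none.

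Ace (ENSMUSG00000020681, chromosome 11, 105967945 to 105989964, plus strand) was at 303 (replicate 1), 472 (replicate 2) and 607 CPM (replicate 3) in WT and 686, 347 and 509 CPM in KO. The groups overlapped widely, with the highest and the second lowest value both in KO. KO exceeded WT by a log2 fold change of 0.16 (SE 0.34, adjusted p = 0.875, edgeR's quasi-likelihood test), and an exact permutation test of the means gave p = 0.7 (two-sided). Leaving out 1 library at a time gave values of -0.13 to 0.39, so it had no settled sign. Divided by the sum of the EC markers, which was 2670, 2860 and 4350 CPM in WT and 4420, 2740 and 3710 CPM in KO, Ace came to 113, 165 and 140 CPM per 1000 CPM of markers in WT and 155, 127 and 137 in KO. On this scale the log2 difference between KO and WT was 0.01 (exact permutation p = 1). The genes whose log2 CPM followed Ace most closely over the 6 libraries were Ephb4, Podxl and Tram2, with Pearson r of 0.9938, 0.9919 and 0.9907. Ephb4 is a receptor of venous ECs and Podxl a sialomucin of the EC surface. These and the likeness values below are descriptions over 6 libraries that share depth and cell composition, taken as the highest of 11735 genes. The r between Ace and the single alveolar type II markers was lower, at 0.313 to 0.443.

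The r with the alveolar type II markers was 0.313 to 0.443 for Ace, 0.978 to 0.999 for Enpep and 0.952 to 0.995 for Atp6ap2. The 250 bases before the start sites of these genes are shown, and a link between the sequences and this difference was not tested. They are RefSeq sequences of GRCm38.p6, 5′ to 3′ on the strand of the gene, at chr11:105967698-105967947 (plus), chr3:129332750-129332999 (minus) and chrX:12587509-12587758 (plus). Capitals mark, on either strand, the letters of the TATA box (TATAA), which 22.8% of 32851 RefSeq promoters of this length hold, of the GC box (GGGCGG), in 32.7%, and of the CCAAT box, in 33.8%.
Ace: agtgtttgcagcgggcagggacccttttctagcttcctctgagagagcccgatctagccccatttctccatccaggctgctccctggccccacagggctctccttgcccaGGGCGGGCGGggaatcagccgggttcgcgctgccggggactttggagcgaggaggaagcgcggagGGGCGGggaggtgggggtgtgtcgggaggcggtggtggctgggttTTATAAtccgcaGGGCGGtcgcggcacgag
Enpep: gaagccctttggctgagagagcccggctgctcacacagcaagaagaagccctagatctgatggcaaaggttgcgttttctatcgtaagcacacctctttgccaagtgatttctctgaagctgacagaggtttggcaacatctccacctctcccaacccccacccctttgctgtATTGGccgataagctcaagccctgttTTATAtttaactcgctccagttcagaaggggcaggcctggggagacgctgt
Atp6ap2: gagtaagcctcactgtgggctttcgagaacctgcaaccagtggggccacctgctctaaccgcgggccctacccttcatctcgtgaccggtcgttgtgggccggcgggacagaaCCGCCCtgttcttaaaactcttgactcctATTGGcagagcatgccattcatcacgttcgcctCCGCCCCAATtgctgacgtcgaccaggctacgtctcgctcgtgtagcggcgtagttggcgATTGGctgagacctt
The Ace sequence holds TATAA in overlapping matches on both strands, 29 and 30 bases before the start, and 4 matches to GGGCGG, with 67.2% G and C. The sequence of Enpep has TATAA 51 bases and CCAAT 77 bases before the start, each on the opposite strand only, and no GGGCGG. That of Atp6ap2 has no TATAA, 2 matches to GGGCGG, on the opposite strand, and 3 to CCAAT over both strands. Matches are letters in a window and not sites shown to be used. RefSeq lists a further Ace start within the gene, where the testis form of the enzyme begins, and the 250 bases before it are at chr11:105974939-105975188. Counts per gene do not separate the forms. RefSeq promoter entries matched 8 of the 9 members, all but Agtr1a.

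Enpep (ENSMUSG00000028024, chromosome 3, 129269175 to 129332720, minus strand), aminopeptidase A, removes the first amino acid of AngII and so forms AngIII. Its level was 31.3 (replicate 1), 310 (replicate 2) and 95.6 CPM (replicate 3) in WT and 239, 304 and 250 CPM in KO. The KO libraries lay close together, whereas the WT libraries held both the lowest and the highest of the 6 values, 9.89-fold apart. The log2 fold change was 0.86 (SE 0.68, adjusted p = 0.653, edgeR's quasi-likelihood test; exact permutation p = 0.4). Without WT replicate 2 it was 2.03 (adjusted p = 0.0412, edgeR), and Enpep was then the 1 member called. That comparison called 5.29% of all genes, 4.41% as higher in KO. Without WT replicate 1, the library with the lowest value, the log2 fold change of Enpep was 0.38 (adjusted p = 0.845, edgeR).

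Enpep tracked the alveolar type II markers from library to library. Per 1000 CPM of these markers it was at 5.78, 6.11 and 6.12 CPM in WT and 5.97, 6.25 and 6.36 CPM in KO, so that the highest and the lowest ratio were 1.1-fold apart. The log2 difference of the ratio between KO and WT was 0.05 (exact permutation p = 0.4). Its r with the 7 single markers was 0.978 to 0.999, and the genes most like it were Cd36, a fatty acid transporter, Cxcl15, a chemokine of lung epithelium, and Npc1, a cholesterol transporter, with r of 0.9997, 0.9995 and 0.9993. All 7 markers had positive log2 fold changes (median 0.77), and 0 of them were called. Without WT replicate 2 the median was 1.94 and 1 marker, Abca3, was called. With the mean of these markers as a covariate, a fit chosen after the data had been seen, the log2 fold change of Enpep was 0.07 (SE 0.15, adjusted p = 0.911, edgeR).

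**Figure D2:**
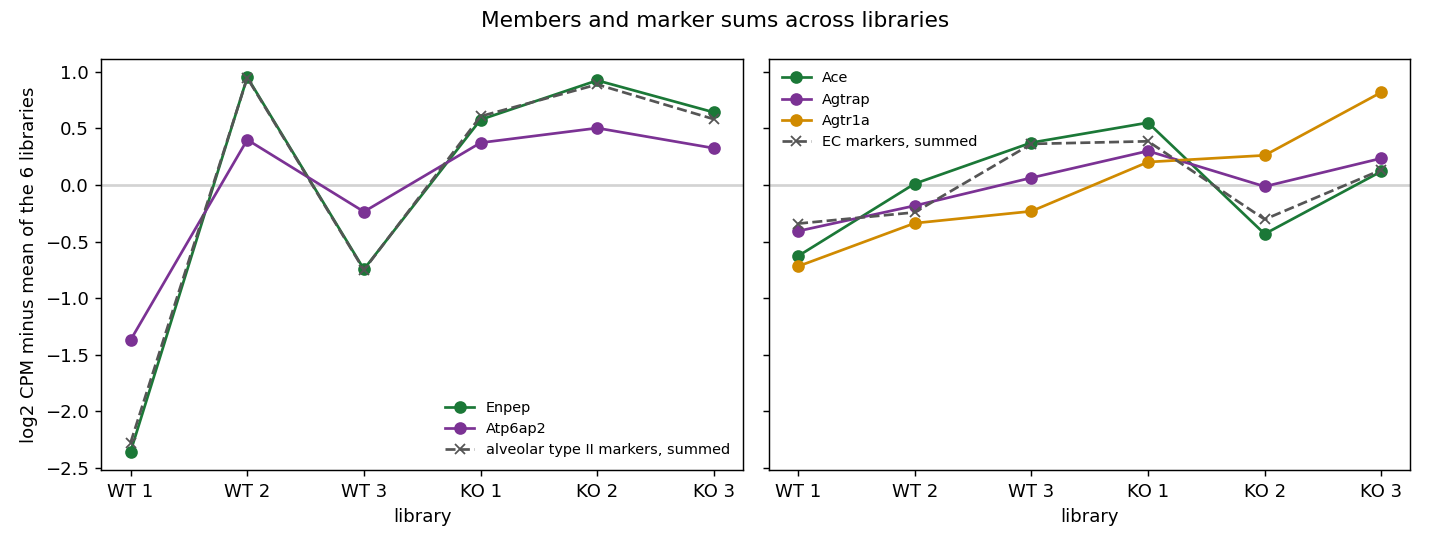
log2 CPM minus the mean over the 6 libraries (y axis) for the tested members and for summed markers (dashed) in each library (x axis), with lines only to guide the eye. On the left, Enpep lies on the summed alveolar type II markers in every library and Atp6ap2 moves less in the same direction. On the right, Ace stays near the summed EC markers, and Agtr1a is higher in the 3 KO than in the 3 WT libraries.

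Other enzymes that act on angiotensins were examined with the rest of the system, in a list of 19 genes of which 18 were found (Ren2 was not) and 14 tested. The test called 0 of the 14, and so did DESeq2. At an unadjusted p under 0.05, which 10.3% of all genes reached, there was 1, Rnpep. Of the 14, 9 were higher and 5 lower in KO (median log2 fold change 0.18). Mme (neprilysin), which degrades many small peptides, was at 37.7, 261 and 112 CPM in WT and 268, 295 and 253 CPM in KO (log2 fold change 0.99, SE 0.58, adjusted p = 0.577, edgeR). Anpep, the aminopeptidase that acts on AngIII, was at 49.2, 384 and 96.0 CPM in WT and 230, 316 and 273 CPM in KO (0.63, adjusted p = 0.735, edgeR). WT replicate 2 lay among the KO libraries for Mme and above them for Anpep.

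In both genes, as in Enpep, WT replicate 1 was the lowest library. Without WT replicate 2 the test called 4 of the list, all higher in KO: Anpep (log2 fold change 1.88), Ctsa (1.24), Mme (1.83) and Adam17 (0.82), with adjusted p-values of 0.0245 to 0.0479 (edgeR). The same fit called 5.29% of all genes, 4.41% as higher in KO. Without WT replicate 1 the log2 fold changes were 0.18 for Anpep, 0.42 for Ctsa, 0.54 for Mme and 0.13 for Adam17. None of the 4 was called there (adjusted p of 0.684 to 0.946, edgeR). Ctsa, a lysosomal carboxypeptidase, was at 48.8, 162 and 94.4 CPM in WT and 174, 190 and 153 CPM in KO, and Adam17, which sheds proteins from the cell surface, at 21.1, 54.8 and 31.5 CPM in WT and 49.3, 48.9 and 44.4 CPM in KO. With all 6 libraries their log2 fold changes were 0.76 and 0.41. With the alveolar type II covariate, the values for Mme, Ctsa, Adam17 and Anpep were 0.25, 0.20, -0.05 and -0.09.

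Rnpep (aminopeptidase B) was at 30.9, 31.7 and 34.8 CPM in WT and 24.7, 24.9 and 26.4 CPM in KO. Its groups did not overlap, as in 9.2% of all genes tested with KO below, and its log2 fold change of -0.36 (SE 0.12) had an adjusted p of 0.385 in edgeR's test. Prep, Thop1 and Nln, which cut angiotensins inside the chain, had log2 fold changes of -0.31, -0.14 and 0.14, and Dpp3, which removes pairs of amino acids, was at 13.5 to 16.0 CPM in all libraries (-0.06). Prcp, a carboxypeptidase of AngII, was at 22.3, 46.7 and 47.0 CPM in WT and 53.5, 41.6 and 43.8 CPM in KO (0.26). The kallikrein Klk1, at 1.03 to 2.65 CPM, had a log2 fold change of 0.55, and Cpa3, the carboxypeptidase of mast cells, at 0.11 to 0.661 CPM, one of -0.63. Cpa3 is also in the list of 6 mast cell markers, whose sum was at 2.69 to 3.23 CPM in WT and 0.92 to 3.31 CPM in KO, with 3 markers at 0 in at least 1 library.

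**Figure D3:**
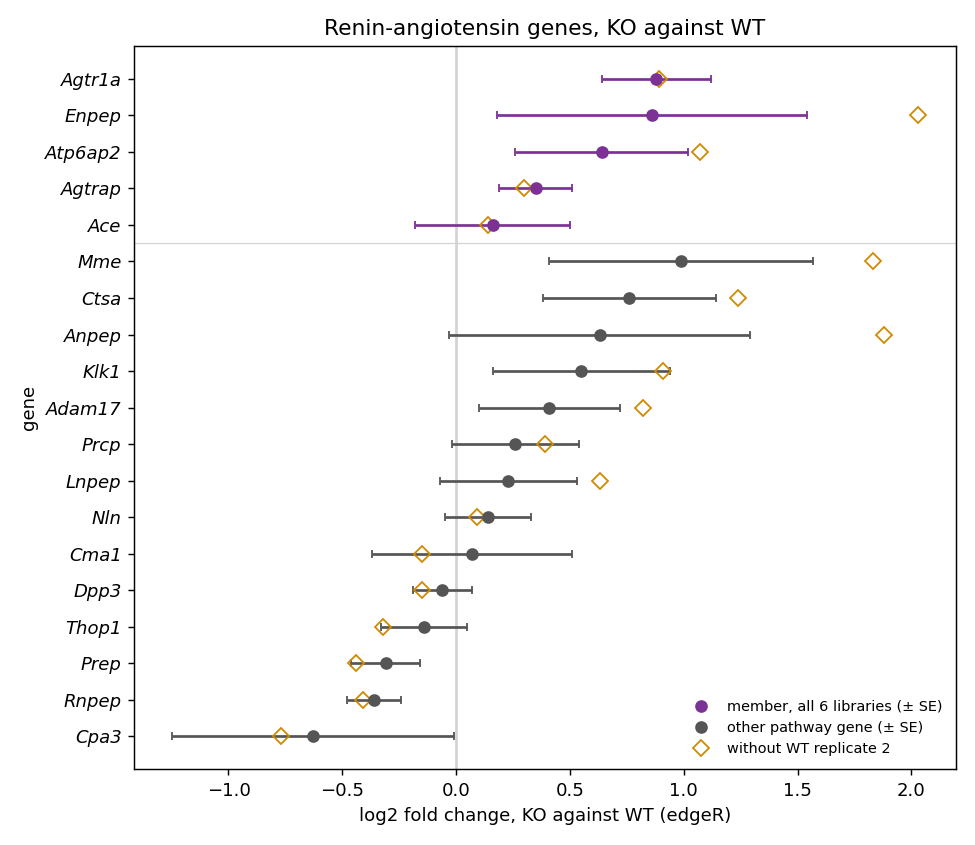
log2 fold change between KO and WT (x axis, positive is higher in KO) from edgeR for the 5 tested members (purple) and the 14 other tested genes of the system (grey), with bars for the standard error, and the value without WT replicate 2 (open diamonds). Enpep, Anpep and Mme move from between 0.63 and 0.99 to between 1.83 and 2.03 without that library, while Agtr1a stays at 0.88 and 0.89. Without WT replicate 1 (not drawn) Enpep, Anpep and Mme are at 0.38, 0.18 and 0.54, and Agtr1a at 0.74.

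Of the angiotensin receptors among the members, only Agtr1a was read in every library. Agtr1a (ENSMUSG00000049115, chromosome 13, 30336441 to 30382867, plus strand), the main type 1 receptor of the mouse, had 124, 135 and 91 counts in the WT and 134, 163 and 256 counts in the KO libraries. Scaled to library size this was 3.04, 3.96 and 4.26 CPM in WT and 5.76, 6.0 and 8.83 CPM in KO. The lowest KO value lay above the highest WT value, and KO replicate 3 stood highest. The log2 fold change was 0.88 (SE 0.24), with an unadjusted p of 0.00692 and an adjusted p of 0.318 in edgeR's test. DESeq2 gave 0.85 and an adjusted p of 0.151. The exact permutation p was 0.1, the smallest that 3 against 3 libraries allow.

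The Agtr1a difference stayed positive whichever library was left out, though not when scaled to alveolar type II markers (-0.76 against -1.74 for the median gene). Without KO replicate 3 the log2 fold change was 0.65, the highest value was 0.97, and it was 0.89 without WT replicate 2 (adjusted p = 0.111, edgeR). With the alveolar type II covariate it was 0.77 (SE 0.29, adjusted p = 0.39, edgeR). In vessels the gene is best known in smooth muscle and pericytes. The 11 markers of these cells summed to 392, 535 and 691 CPM in WT and 583, 458 and 645 CPM in KO, with none at 0 in any library, and 4 of the 11 were higher and 7 lower in KO. Of the 11, 0 were called by edgeR, 3 had an unadjusted p under 0.05 and were lower in KO, and 3 lay below WT in all KO libraries. Over all genes tested, 10.3% had such a p in either direction and 9.2% lay below WT in all KO libraries. Tagln, a smooth muscle gene, was called by DESeq2 (beside 1.28% of its genes) and by edgeR without WT replicate 2 (beside 5.29%). The log2 fold changes of the 11 ran from -1.06 for Tagln to 0.60 for Pdgfrb, so the markers behind this sum did not move alike. Per 1000 CPM of these markers Agtr1a was at 7.74, 7.41 and 6.17 CPM in WT and 9.87, 13.1 and 13.7 CPM in KO. The log2 difference of this ratio was 0.77, and the groups did not overlap (exact permutation p = 0.1). The genes most like Agtr1a over the libraries were Zfp688, Scn3a and Angpt1, with r of 0.9846, 0.9817 and 0.9796. Angpt1 encodes a ligand of the EC receptor Tek that is made by perivascular cells.

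**Figure D4:**
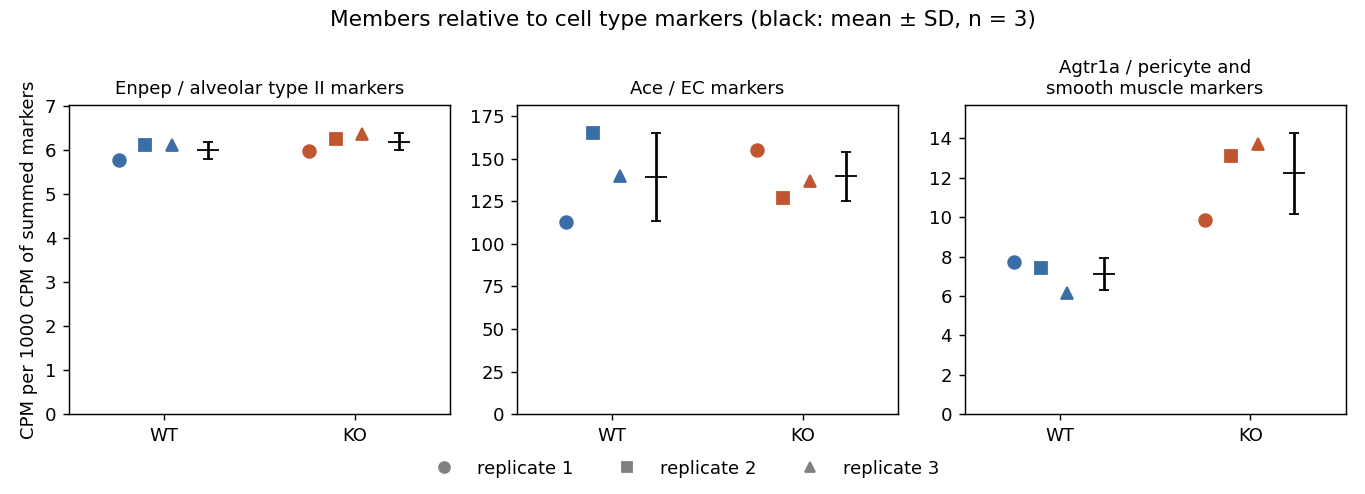
CPM of a member per 1000 CPM of summed markers (y axis, from 0) in the 3 WT (blue) and 3 KO (orange) libraries, with black marks for mean ± SD (n = 3). The ratio of Enpep to alveolar type II markers lies at 5.78 to 6.36 in all 6 libraries and that of Ace to EC markers at 113 to 165, whereas Agtr1a per pericyte and smooth muscle markers is at 6.17 to 7.74 in WT and 9.87 to 13.7 in KO.

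The other 3 receptors of angiotensin peptides were at or near 0. Agtr1b (ENSMUSG00000054988, chromosome 3, 20314473 to 20367177, minus strand) had 5 counts in WT replicate 2 and none in the other 5 libraries. It is a close paralog of Agtr1a, yet only 33 of the 2922 windows of 50 bases in Agtr1a transcripts (1.13%) also occur in Agtr1b, and reads with several alignments were not counted, so little of either gene can be exchanged. Agtr2 (ENSMUSG00000068122, chromosome X, 21484544 to 21489164) and Mas1 (ENSMUSG00000068037, chromosome 17, 12841079 to 12868143) had no count in any of the 6 libraries, so they were not detectable above 0.0734 to 0.14 CPM. Mrgprd, a relative of Mas1, had 4 and 3 counts in WT replicates 2 and 3 and none elsewhere. Lnpep, the aminopeptidase that binds AngIV, was at 10.9, 26.3 and 14.8 CPM in WT and 21.0, 22.4 and 17.7 CPM in KO (log2 fold change 0.23).

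Agtrap (ENSMUSG00000029007, chromosome 4, 148077061 to 148088031, minus strand), the protein that binds the tail of the type 1 receptor, was the steadiest member, with a coefficient of variation of 17.7% over the 6 libraries against 30.2% to 56.1% for the other 4 tested. It was at 40.4, 47.2 and 56.0 CPM in WT and 66.0, 53.1 and 63.1 CPM in KO. The groups overlapped through WT replicate 3 and KO replicate 2. The log2 fold change was 0.35 (SE 0.16, adjusted p = 0.507, edgeR; exact permutation p = 0.2), and it stayed between 0.23 and 0.45 with each library left out. Per unit of Agtr1a, both in RPKM, Agtrap came to 7.74, 6.93 and 7.65 in WT and 6.68, 5.16 and 4.16 in KO. This ratio of modulator to receptor was lower in every KO than in every WT library, by 0.51 on the log2 scale (exact permutation p = 0.1), with the receptor as the member that differed more. The genes most like Agtrap were Plxdc1, Cyp2d22 and Tnfsf10, with r of 0.9970, 0.9966 and 0.9947.

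Atp6ap2 (ENSMUSG00000031007, chromosome X, 12587801 to 12617049, plus strand) was at 27.3, 93.1 and 59.9 CPM in WT and 91.4, 100 and 88.4 CPM in KO. WT replicate 2 lay among the KO libraries and the other WT libraries below them. The log2 fold change was 0.64 (SE 0.38, adjusted p = 0.582, edgeR), with an exact permutation p of 0.3. Without WT replicate 2 it was 1.07 (adjusted p = 0.0863, edgeR), and without WT replicate 1 it was 0.28 (adjusted p = 0.751, edgeR). Its r with the alveolar type II markers was 0.952 to 0.995, and the genes most like it were Acp2, a lysosomal phosphatase, Apoc1 and Spink5, with r of 0.9995, 0.9991 and 0.9990. Per 1000 CPM of these markers it was not constant, at 5.03, 1.84 and 3.83 CPM in WT and 2.28, 2.06 and 2.25 CPM in KO. With the covariate its log2 fold change was 0.07 (SE 0.16, adjusted p = 0.905, edgeR).

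The other genes of the proton pump were spread around 0. Of 14 V-ATPase subunits and accessory genes, 0 were called and 0 had an unadjusted p under 0.05. KO was higher for 7 and lower for 7 (median log2 fold change -0.03). The highest was Atp6v0a1 (0.59), at 15.7, 37.5 and 32.1 CPM in WT and 43.7, 48.2 and 36.7 CPM in KO. Atp6ap1, the other accessory gene, was at 74.3, 272 and 158 CPM in WT and 231, 276 and 240 CPM in KO (0.56). With each library left out the log2 fold change of Atp6ap1 ran from 0.20 to 1.06, the latter without WT replicate 2. With the alveolar type II covariate it was -0.02. The lowest was Atp6v1g1 (-0.28), at 19.7, 20.5 and 25.4 CPM in WT and 19.7, 16.8 and 17.5 CPM in KO.

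Ratios between members were taken per length within each library, among 7 ratios examined, and none can reach a p under 0.1 in this design. Ace per Enpep was 8.61, 1.36 and 5.65 in WT and 2.55, 1.02 and 1.81 in KO, a log2 difference of -1.27 (exact permutation p = 0.3). For this ratio WT replicate 2 lay among the KO libraries. Ace per Agtr1a was 46.5, 55.6 and 66.5 in WT and 55.6, 27.0 and 26.9 in KO (-0.70, exact permutation p = 0.2).

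Genes that carry the signal of the receptors into the cell showed small differences. Of 19 such genes, all tested, 0 were called, 1 had an unadjusted p under 0.05, 8 were higher and 11 lower in KO, and the median log2 fold change was -0.09. Rgs2, which shortens the signal of the G protein that the type 1 receptor uses, was the highest and the 1 with an unadjusted p under 0.05, which 10.3% of all genes reached. It was at 11.9, 15.8 and 12.3 CPM in WT and 17.2, 17.6 and 20.1 CPM in KO (log2 fold change 0.46, SE 0.16, adjusted p = 0.412, edgeR). Its groups did not overlap, as in 8.59% of all genes tested with KO above. The lowest was Grk5, a kinase of activated receptors, at 88.8, 71.5 and 71.5 CPM in WT and 64.5, 57.5 and 65.9 CPM in KO (-0.30, adjusted p = 0.508, edgeR). In 4 of the 19, Gna13, Grk2, Grk5 and Arhgef1, all KO libraries were below all WT libraries, against 9.2% of all genes tested. Gna13, Grk2 and Arhgef1 were named after their values were seen.

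Kinins are another substrate of Ace. Of 8 genes of this system 7 were found (Klkb1 was not) and 6 tested, of which 0 were called and 0 had an unadjusted p under 0.05, with log2 fold changes of -0.56 to 1.39. Cpm, a membrane carboxypeptidase of kinins, had the highest log2 fold change of those with a mean log2 CPM over 1, at 41.7, 344 and 102 CPM in WT and 334, 413 and 349 CPM in KO, with the low WT replicate 1 and high WT replicate 2 seen in Enpep. For Cpm the log2 fold change was 1.17 (SE 0.65, adjusted p = 0.564, edgeR) with all libraries and 2.31 (adjusted p = 0.0245, edgeR) without WT replicate 2. With each library left out it ran from 0.70 to 2.31. In the fit without WT replicate 2, 2 genes of the list, Cpm and Cpn1, were called, beside 5.29% of all genes. The log2 fold change of Cpn1 was 1.83 there (adjusted p = 0.0491, edgeR) and 0.64 with all libraries (adjusted p = 0.722, edgeR). With each library left out it was 0.19 at the lowest. Xpnpep2, which also cleaves bradykinin, had the lowest log2 fold change of those with a mean log2 CPM over 1, at 3.38 to 4.35 CPM in WT and 4.08 to 6.70 CPM in KO (0.51).

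AngII also drives aldosterone release from the adrenal, and the receptor and targets of aldosterone were measured as 7 genes. Cyp11b2, the aldosterone synthase of the adrenal, had no read, and 0 of the 6 tested genes were called by edgeR, with 2 at an unadjusted p under 0.05, which 10.3% of all genes reached. Nr3c2, the mineralocorticoid receptor, was at 7.96, 4.61 and 7.26 CPM in WT and 13.9, 12.2 and 13.1 CPM in KO. The KO libraries lay well above all WT libraries, and the log2 fold change was 0.98 (SE 0.22, adjusted p = 0.259, edgeR). DESeq2, which called 1.28% of its genes, called Nr3c2 (adjusted p = 0.0425). Sgk1, a kinase induced by this receptor and by glucocorticoids, was at 100, 93.6 and 88.9 CPM in WT and 82.2, 64.9 and 71.0 CPM in KO, also without overlap but in the other direction (-0.37, SE 0.14, adjusted p = 0.451, edgeR). Such separation was seen in 8.59% of all genes tested with KO above and in 9.2% with KO below. Without WT replicate 2, when 4.41% of all genes were called as higher in KO, the test called Nr3c2 (0.74, adjusted p = 0.0418, edgeR) and the 3 sodium channel subunits Scnn1a (0.97), Scnn1b (1.25) and Scnn1g (0.99), all higher in KO. With the alveolar type II covariate Nr3c2 was also called, at 1.35 (SE 0.19, adjusted p = 0.0314, edgeR). The channel subunits are epithelial genes. Their log2 fold changes were 0.33, 0.56 and 0.57 with all libraries, and 0.05, 0.28 and 0.31 at the lowest with a library left out. With the alveolar type II covariate they were -0.21, 0.02 and 0.16.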

How the data were processed

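PolyA RNA-seq of lung ECs was used from 6 libraries, grouped by genotype label as 3 WT and 3 KO. The deposited values are raw counts, whole numbers for every gene in 1 table per library. Per the file headers and the submitters' processing notes, reads were aligned with STAR 2.5.4b to mm10 and uniquely aligned reads counted over exons with featureCounts 2.0.0 (reverse strand, Ensembl release 84). Symbols came from GENCODE for 47224 of 47729 genes. No library pair held identical counts or agreed within sampling noise (lowest chi-square divided by its degrees of freedom, 37).

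In R 4.3.3, edgeR 4.0.16 was run on all genes that passed filterByExpr, with TMM scaling, genotype as the only term, glmQLFit and glmQLFTest by default, and Benjamini-Hochberg adjustment over 14625 genes with a threshold of 0.05. The script was tested on simulated data. Permutation tests were exact and two-sided. The fit of the study's methods (DESeq2, here 1.42.0, default settings), limma 3.58.1 and other scalings, filters and left-out libraries were alternatives. Total counts of 24464324 to 35184063 leave genes near 1 CPM on few reads.

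The members and lists were chosen with earlier results of these data known. Every member and every gene of the list of other renin-angiotensin genes is named, except 1 that is not reported here and is left out of the list's counts. Of the other lists (receptor signalling, kinins, aldosterone, V-ATPase), called genes and the highest and lowest log2 fold change at a mean log2 CPM over 1 are named, and for each tested member the 3 genes of highest Pearson r. Replicate numbers are shared between the groups, and the libraries were treated as unpaired. The deviations of same-numbered libraries correlated at -0.0814, 0.219 and 0.0111, and those of the other pairs at -0.185 to 0.194. With 3 libraries in each group these values cannot exclude a pairing, and a fit with the replicate number as a block is among the alternatives below.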

Additional observations from a re-analysis of the deposited data

How the results depend on the processing

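The count of genes called, 16 with the quasi-likelihood test, was 192 with DESeq2, 26 with limma-voom, 211 with edgeR's likelihood ratio test, 26 with RLE and 31 with upper-quartile factors, 123 with total counts, 152 without a filter, 47 scaled to EC markers and 0 with the replicate block, where 1776 genes had an unadjusted p under 0.05. It ran from 0 (986 to 1112 at an unadjusted p under 0.05 without a KO library) to 791 (without WT replicate 2) with each library left out. Over the same left-out libraries the count of members called ran from 0 to 1, of other renin-angiotensin genes from 0 to 4, of kinin genes from 0 to 2 and of aldosterone genes from 0 to 4. The aldosterone count of 0 was 1 with DESeq2, the likelihood ratio test, no filter and the alveolar type II covariate. The replicate block changed no call of a member or list. Total counts moved the median of all genes from 0.03 to -0.13 and turned Cma1 to -0.12 and Nln to -0.03, and EC marker scaling moved it to -0.18 and turned Ace to -0.04, Cma1 to -0.13 and Nln to -0.08. With each library left out, signs turned within -0.13 to 0.39 for Ace, -0.15 to 0.22 for Cma1, -0.07 to 0.24 for Nln, -0.03 to 0.63 for Lnpep, -0.02 to 0.41 for Prcp and -0.15 to 0.00 for Dpp3. Alternatives chosen after seeing the data were scaling to alveolar type II markers and the covariate of these markers. The scaling moved the median of all genes to -1.74 and called 0 genes (5092 at an unadjusted p under 0.05). It turned Ace (-1.39), Agtr1a (-0.76), Agtrap (-1.35), Atp6ap2 (-0.60), Anpep (-0.15), Cma1 (-1.83), Ctsa (-0.49), Klk1 (-0.94), Lnpep (-1.17), Nln (-1.60), Prcp (-1.19) and Adam17 (-0.95). Of these, Cma1 alone lay below the median of all genes. The covariate called 49 genes and turned Ace (-0.02), Anpep (-0.09), Lnpep (-0.22), Prcp (-0.09), Thop1 (0.09), Dpp3 (0.05) and Adam17 (-0.05). The causes of these moves were not tested. With few counts, Agt, Agtr1b, Agtr2 and Mas1 could not be compared between groups.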

Other observations

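Summed levels of other cell type markers in the same libraries are given as values. B cell markers (8 genes) summed to 9.45 to 20.5 CPM in WT and 75.7 to 76.9 CPM in KO, with 3 of 8 called by edgeR, and T cell markers (7 genes) to 3.13 to 5.23 CPM in WT and 7.39 to 11 CPM in KO, 0 called, with 4 at an unadjusted p under 0.05. In 8 B cell and 4 T cell markers all KO libraries lay above all WT libraries. Over all genes tested, 0.109% were called, 10.3% had an unadjusted p under 0.05 and 8.59% had KO above without overlap. Mesothelial markers (4 genes) summed to 70.0 to 134 CPM in WT and 155 to 180 CPM in KO, 0 called. The sums of fibroblast (624 to 1200 CPM in WT, 931 to 1230 in KO), macrophage (126 to 341 and 174 to 421), neutrophil (27.9 to 77.0 and 40.5 to 43.9), alveolar type I (629 to 1420 and 1090 to 1590), club and ciliated (15500 to 40500 and 33700 to 56900), cardiac muscle (12 to 40.7 and 14.4 to 18.0), general capillary (916 to 1870 and 994 to 1630), aerocyte (666 to 826 and 558 to 908) and artery markers (288 to 390 and 294 to 441) overlapped between the groups.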
